A study of Caenorhabditis elegans with 4 samples.

Results

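The insulin-like peptide genes of *C. elegans* were followed here in whole adult worms exposed to low-dose arsenite. The members were taken by name, as every gene of the deposited gene table called ins followed by a number, plus daf-28, and these are 40 of the 19912 genes in that table. The RNA came from N2 wild-type worms (Bristol) as whole animals, adults at 48 h after the L4 larval stage. In the arsenite group, worms were kept on agar plates with 100 nM arsenite, and in the control group on plates from the same agar batch with the solvent, water. Both groups were fed heat-inactivated OP50 bacteria. The methods of the study add ampicillin to treatment plates and do not say whether control plates had it. Each group has 2 libraries (arsenite replicates 1 and 2, control replicates 1 and 2). Whether the replicates were separate cultures is not given in the sources, so the tests measure the spread between these samples alone, and that spread may be technical.

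Insulin-like peptides are small secreted hormones that are cut from a precursor, stored in dense-core vesicles and released mostly from neurons and from the intestine. They bind the receptor DAF-2, which acts through the PI3 kinase AGE-1 and the AKT kinases to keep the transcription factor DAF-16/FOXO out of the nucleus. Some members, such as DAF-28, INS-6, INS-4 and INS-7, activate the receptor by genetic evidence, while INS-1, INS-17 and INS-18 act against it. The pathway controls dauer larva formation, fat storage, stress resistance and adult lifespan in worms. The comparison asks which of these hormone genes were measurable in whole adults and whether their RNA levels differed with arsenite.

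Total gene counts, which add up the transcripts of each gene, were 45541614 and 50472338 in arsenite replicates 1 and 2, and 47577505 and 44263387 in control replicates 1 and 2. Neurons are a small part of a whole worm, and the 12 pan-neuronal markers, none of them at 0 in any library, had summed levels of 251.2 to 263.3 RPKM in arsenite libraries and 267.9 to 279.9 RPKM in control libraries. RPKM is a read count divided by the length of the transcript and by the mapped reads of its library. The 11 intestinal markers summed to 20830 to 23470 RPKM with arsenite and 19870 to 22290 RPKM in controls. Germline, epidermal and body wall muscle markers were also present, while 9 sperm genes summed to only 1.39 to 1.71 RPKM with arsenite and 1.43 to 1.57 RPKM in controls. In RNA of whole animals, fewer cells of a type and less RNA per cell cannot be told apart.

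Most insulin-like peptide genes were at the lower end of what these libraries could measure. Of the 40 members, 29 had at least 1 read in every library, 4 had none in any library and 19 passed the filter on low counts of edgeR (about 10 reads in at least 2 libraries). That is 47.5% of the members, beside 69.2% of all genes. The 4 genes without a read were ins-8, ins-16, ins-20 and ins-21, or 10% of the members beside 6.47% of all genes. A count of 0 allows up to 3 reads (a 95% limit on one side, where the two-sided exact Poisson interval ends at 3.69), which for a transcript of 300 nt is 0.284 to 0.327 RPKM in these libraries, for counting error only. Between both classes lie 17 members with reads that did not pass the filter. Only 5 members reached a mean of 5 RPKM over the 4 libraries, and 16 reached 1 RPKM. The summed level of all 40 members was 79.0 and 94.1 RPKM with arsenite, against 80.2 and 78.8 RPKM in controls, so that arsenite replicate 2 stood above the other 3 libraries.

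**Figure D1:**
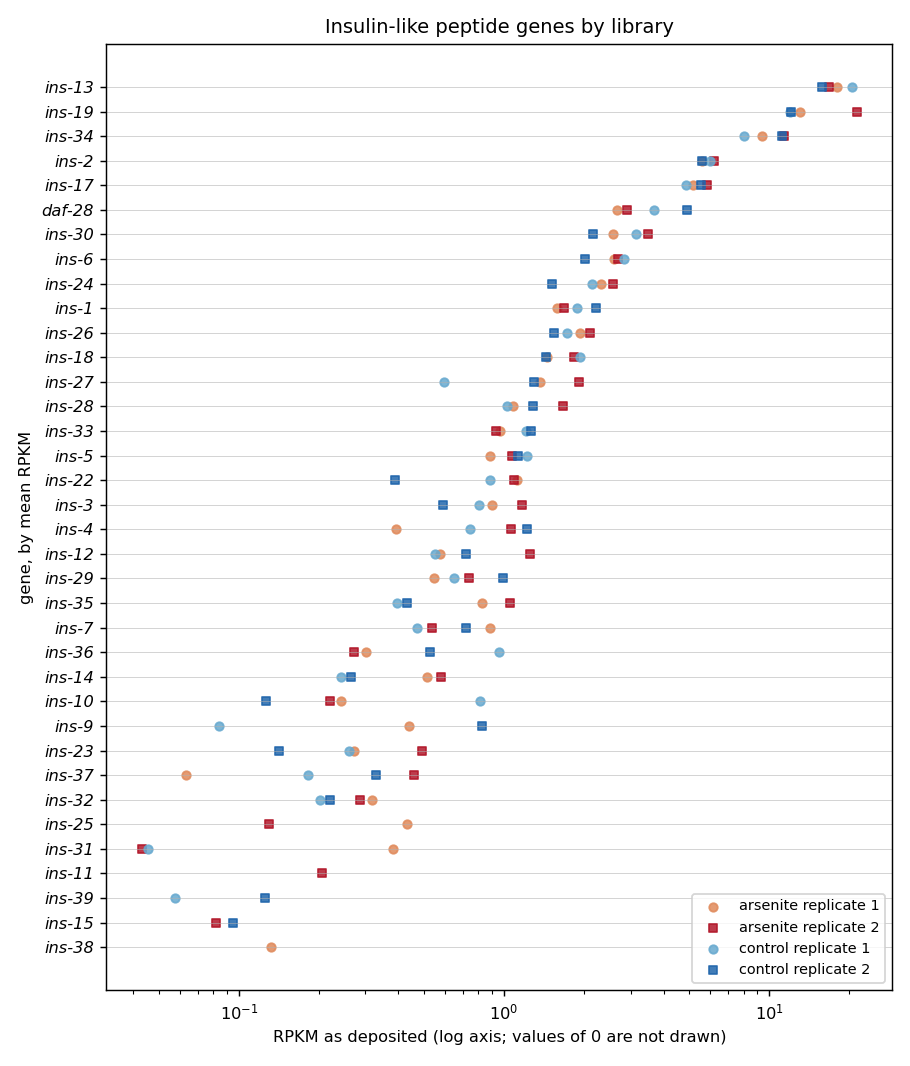
Deposited RPKM (log axis) of the 36 insulin-like peptide genes with at least 1 read, ordered by mean RPKM, with 1 point per library (arsenite in red tones, control in blue tones, circles for replicate 1 and squares for replicate 2). ins-13, ins-19 and ins-34 head the order, and ins-19 in arsenite replicate 2, at 21.4 RPKM, is the highest single value.

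The gene with the highest listed level was ins-13, but its counted transcript is longer than the annotated one and its exons overlap those of another gene. Its level was 17.98 and 16.82 RPKM with arsenite and 20.58 and 15.81 RPKM in controls. The transcript counted under this name is 856 nt long by the ratio of count to RPKM, whereas its exons in the annotation of WBcel235 (chromosome II, 5544512 to 5544864) cover 308 nt. Of these, 87 nt are shared with exons of acdh-2 on the same strand, a gene of an acyl-CoA dehydrogenase that takes part in fatty acid breakdown. The level of acdh-2 was 30.5 and 29.4 RPKM with arsenite and 32.3 and 28.6 RPKM in controls. By RPKM both genes were highest in control replicate 1 and lowest in control replicate 2, and how many reads of ins-13 come from acdh-2 was not tested.

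Below ins-13 came ins-19, ins-34, ins-2 and ins-17, all above the remaining members by mean RPKM. The level of ins-19 was 13.1 and 21.4 RPKM with arsenite and 11.9 and 12.1 RPKM in controls. That of ins-34 was 9.42 and 11.4 RPKM with arsenite and 8.05 and 11.2 RPKM in controls, and these ranges overlap. Its exons (chromosome IV, 14106574 to 14107737) share 82 nt of their 507 nt with exons of the cotransporter gene nkcc-1 (other strand). Within that stretch, reads of both genes cannot be told apart because the kit kept no strand. The counted transcript is 417 nt long, and whether it includes the shared stretch was not tested. The counts of nkcc-1 were 9214 and 10234 with arsenite and 9616 and 8953 in controls. Those of ins-34 were 125 and 167 with arsenite and 112 and 143 in controls. How many reads of ins-34 come from nkcc-1 was not tested. The neighbours ins-2 (5.58 and 6.19 RPKM with arsenite, 5.97 and 5.6 RPKM in controls) and ins-17 (5.15 and 5.84 RPKM with arsenite, 4.86 and 5.52 RPKM in controls) overlap in level and have no set order. The agonist daf-28 followed, with 2.67 and 2.90 RPKM with arsenite and 3.67 and 4.89 RPKM in controls. Uniquely mapped reads were counted, so reads shared by near-identical members would be lost.

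No insulin-like peptide gene passed the test between arsenite and control worms. With edgeR's quasi-likelihood test on all 13776 genes that passed the filter and adjustment over all of them, 0 of the 19 tested members were higher and 0 lower. The same test called 0% of all genes higher and 0% lower. Before adjustment, with p under 0.05, it gave 2 members as higher, ins-19 and ins-35, and 0 as lower, beside 2.16% of all genes higher and 5.05% lower. Of these 2, ins-35 passed the filter only through the arsenite libraries, in which it was higher. The 2 are 10.5% of the tested members, and in the shortest 10% of genes, which hold 15 of the 19 members, these shares were 12.6% higher and 1.52% lower. The edgeR exact test called 0 members in either direction, with 0.392% of all genes higher and 0.617% lower. The likelihood ratio test called 0 members, with 0.421% and 0.719% of all genes higher and lower. DESeq2 also called 0 members, with 0.0901% and 0.17% of the genes to which it gave an adjusted p, but it gave none to 15 of the 19 members.

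The fitted log2 fold changes of the 19 members spread from -0.57 for daf-28 to 1.22 for ins-35, with a median of 0.16. The median of all genes tested was 0.0055. The fitted change was above 0 in 13 members and below 0 in 6. In 7 members (36.8%) both arsenite libraries lay above both controls, and in 4 (21.1%) below them, beside 17.1% and 19.1% of all genes tested. The 7 members include ins-35, which had 10 counts only in arsenite libraries and thus passed the filter through the group in which it was higher. The 95% intervals reached from 0.267 to 1.22 to either side of the fitted value (median 0.619 on the log2 scale), so that changes of moderate size in either direction remain within them. The interval of 17 of the 19 members includes 0. Of the 17 members refitted with each library left out, 7 (ins-2, ins-4, ins-6, ins-13, ins-18, ins-30 and ins-34) had fitted values of both signs.

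**Figure D2:**
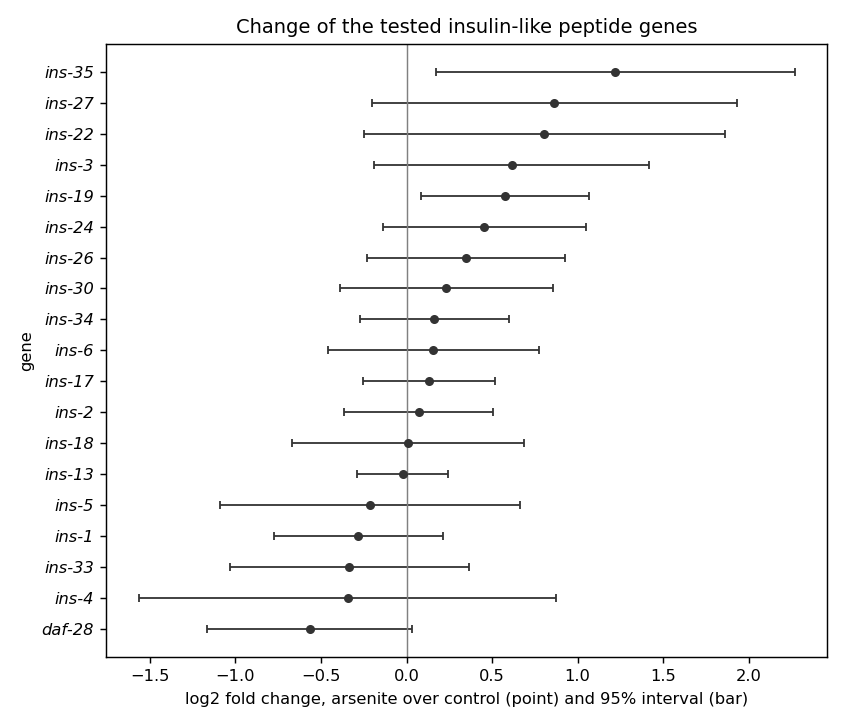
Log2 fold change of arsenite over control from edgeR's quasi-likelihood test (points) with 95% intervals (bars) for the 19 insulin-like peptide genes that passed the filter on low counts. Fitted values run from 1.22 (ins-35) to -0.57 (daf-28), and the intervals of ins-35 and ins-19 alone lie on one side of 0, before adjustment over all genes.

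The member with the smallest p was ins-19, whose difference rests on arsenite replicate 2. It lies on chromosome II of WBcel235 from 3126037 to 3126441, and its exons overlap no other gene in the annotation. The study's own list of transcripts changed by arsenite, drawn from these same samples, holds ins-19, so its values here are not independent of that list. The study took transcripts with an edgeR adjusted p under 0.05. Here, on gene counts, ins-19 had an adjusted p of 0.362 by the edgeR exact test and 0.328 by the likelihood ratio test. Its counts were 135 and 244 with arsenite, against 129 and 120 in controls. Counting error alone gives 95% intervals of 113 to 160 and 214 to 277 reads for the arsenite libraries, while the intervals of the controls end at 153 and 143 reads (exact Poisson intervals). Arsenite replicate 2 thus lies above the other 3 libraries, whose counting intervals overlap each other. After normalization for library size the counts were 139 and 233 with arsenite (mean 186 ± 66.3, SD, n = 2) and 123 and 128 in controls (mean 126 ± 3.72, SD, n = 2). The log2 fold change was 0.57 (standard error, SE, 0.22, 95% interval 0.084 to 1.07, quasi-likelihood adjusted p = 0.562). Without arsenite replicate 2 it was 0.15, and without arsenite replicate 1 it was 0.90. With a lone arsenite library, a test assumes that it varies like the controls, so only the fitted values of these refits are given.

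The gene ins-35, on chromosome V from 20375536 to 20376302, had the largest fitted change but few reads. It had 10 and 14 counts with arsenite, against 5 in each control, and passed the filter on low counts through the arsenite libraries alone. All arsenite values lie above the controls, by 5 to 9 reads. The log2 fold change was 1.22 (SE 0.47, 95% interval 0.17 to 2.27, quasi-likelihood adjusted p = 0.562). It ran from 1.02 to 1.39 when 1 library was left out, and no alternative passed the threshold.

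The members next in order of p, after daf-28, were ins-27, ins-24 and ins-22, with fitted values above 0 at low counts. The gene ins-27 had 11 and 17 counts with arsenite, against 5 and 10 in controls. Its log2 fold change was 0.86 (95% interval -0.20 to 1.93, quasi-likelihood adjusted p = 0.789), 0.37 without control replicate 1 and 1.52 without control replicate 2. For ins-24 the counts were 35 and 43 with arsenite, against 34 and 22 in controls. This is a log2 fold change of 0.46 (95% interval -0.14 to 1.05, quasi-likelihood adjusted p = 0.802), which was 0.25 without control replicate 2 and 0.71 without control replicate 1. For ins-22, whose product is widely used as a marker of dense-core vesicle release from neurons, the counts were 12 and 13 with arsenite, against 10 and 4 in controls. Its log2 fold change was 0.80 (95% interval -0.25 to 1.86, quasi-likelihood adjusted p = 0.803) and became 0.38 without control replicate 2 and 1.51 without control replicate 1. In ins-24 and ins-22 the lowest library is control replicate 2, and the other control lies close to the arsenite libraries.

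**Figure D3:**
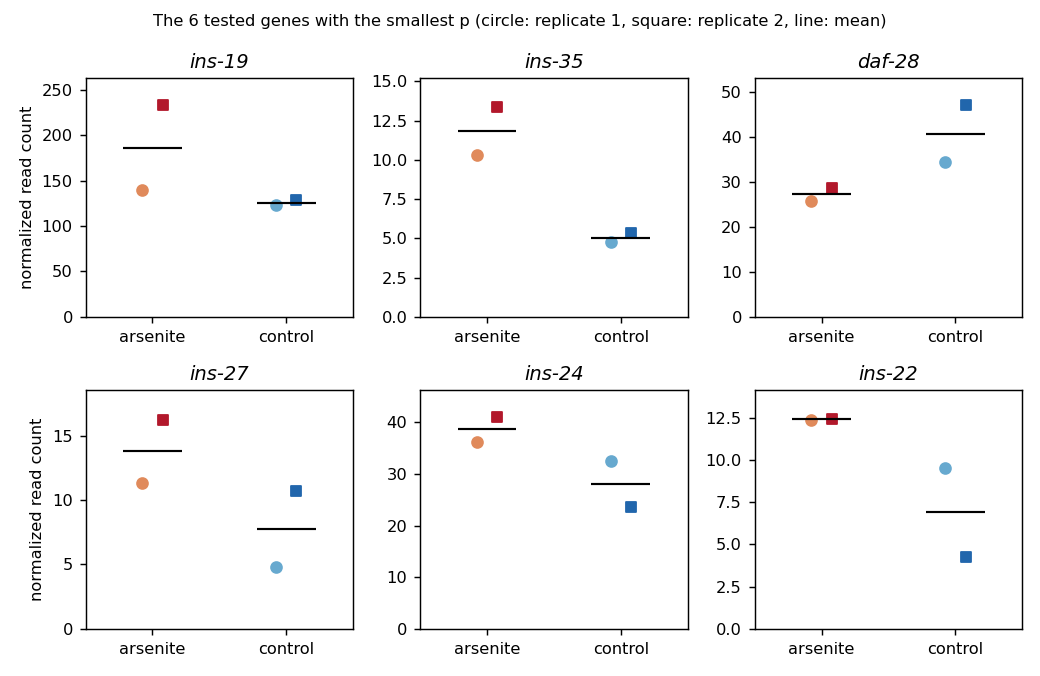
Normalized read counts of the 6 tested insulin-like peptide genes with the smallest p, arsenite left and control right in each panel, with circles for replicate 1, squares for replicate 2 and lines for the group means. Arsenite replicate 2 of ins-19 stands at 233, above the other 3 libraries at 123 to 139, while both arsenite libraries of daf-28, at 25.8 and 28.7, lie below both controls.

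The fitted changes of the agonists had both signs. The gene daf-28 (chromosome V, 19815133 to 19816454), which keeps larvae from entering the dauer stage and is made in sensory neurons, had the lowest fitted change of the family. Its counts were 25 and 30 with arsenite, against 36 and 44 in controls, so that both arsenite libraries lay below both controls. The log2 fold change was -0.57 (SE 0.27, 95% interval -1.16 to 0.033, quasi-likelihood adjusted p = 0.714). It was -0.33 without control replicate 2 and -0.79 without control replicate 1. Before adjustment, p was 0.047 by the exact test and 0.045 by the likelihood ratio test, and after it 0.645 and 0.598. The gene ins-6, an agonist that promotes exit from dauer, had 28 and 32 counts with arsenite, against 32 and 21 in controls, with a log2 fold change of 0.16 (95% interval -0.46 to 0.78, quasi-likelihood adjusted p = 0.955). Its groups overlap, and the value was -0.036 without control replicate 2 and 0.40 without control replicate 1.

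Of the other agonists, ins-3 (chromosome II, 5990099 to 5990768) had 16 and 23 counts with arsenite, against 15 and 10 in controls, a log2 fold change of 0.61 (95% interval -0.19 to 1.42, quasi-likelihood adjusted p = 0.803). The agonist ins-4 had 4 and 12 counts with arsenite, against 8 and 12 in controls. Its log2 fold change of -0.34 (95% interval -1.56 to 0.87, quasi-likelihood adjusted p = 0.951) was 0.18 without arsenite replicate 1 and -1.26 without arsenite replicate 2, so that its direction is not settled. For ins-5 the counts were 9 and 12 with arsenite, against 13 and 11 in controls, with a log2 fold change of -0.21 (95% interval -1.09 to 0.66, quasi-likelihood adjusted p = 0.961). These counts overlap. Only after normalization, at 9.29 and 11.47 with arsenite and 12.40 and 11.76 in controls, does ins-5 fall among the members lower without overlap. The agonist ins-7, which DAF-16 represses and which signals from the intestine to other tissues, did not pass the filter. It had 9 and 6 counts with arsenite and 5 and 7 counts in controls, and the groups overlap. Of the 6 agonists, 5 were tested, 2 with a fitted value above 0 and 3 below, with a median of -0.21, but the signs of ins-4 and ins-6 depend on single libraries.

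None of the antagonists passed the test. The gene ins-1 (chromosome IV, 10436701 to 10438412), a neuronal peptide close to human insulin that acts in learning, had 40 and 47 counts with arsenite, against 50 and 54 in controls. Both arsenite libraries lay below both controls, with a log2 fold change of -0.28 (SE 0.22, 95% interval -0.78 to 0.21, quasi-likelihood adjusted p = 0.888) that was -0.14 without control replicate 2 and -0.42 without control replicate 1. The gene ins-17 had 98 and 123 counts with arsenite, against 97 and 101 in controls, a log2 fold change of 0.13 (95% interval -0.25 to 0.51, quasi-likelihood adjusted p = 0.944). For ins-18 the counts were 20 and 28 with arsenite, and 28 and 19 in controls. Its log2 fold change was 0.0082 (95% interval -0.67 to 0.69, quasi-likelihood adjusted p = 0.996), with a sign that changed when other libraries were left out.

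The remaining tested members without a genetic role named here did not pass either. Of the 19 tested members, ins-13 had the narrowest interval. For ins-13 the normalized counts were 506 and 484 with arsenite and 561 and 443 in controls, with a log2 fold change of -0.022 (95% interval -0.29 to 0.25), beside 0.020 (SE 0.069) for acdh-2. For ins-34 they were 129 and 160 with arsenite and 107 and 153 in controls, a log2 fold change of 0.16 (95% interval -0.27 to 0.60) that was -0.083 without control replicate 1 and 0.44 without control replicate 2. For ins-2 they were 58.8 and 66.9 with arsenite and 61.0 and 58.8 in controls, a log2 fold change of 0.07 (95% interval -0.36 to 0.50). The groups of all 3 genes overlap. The values of ins-26 were 30.96 and 34.39 with arsenite and 26.7 and 24.6 in controls, and those of ins-33 were 16.5 and 16.2 with arsenite and 20.03 and 21.38 in controls. Their groups do not overlap, in opposite directions, with log2 fold changes of 0.35 (95% interval -0.23 to 0.93) and -0.33 (95% interval -1.03 to 0.37).

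Many of these genes lie side by side in the genome. With gaps of up to 10 kb, 25 of the 40 members fall into 7 groups of neighbours on WBcel235. The largest is a row of 7 genes on chromosome I from 14012369 to 14037777, with ins-28, ins-29, ins-25, ins-27, ins-24, ins-30 and ins-26. All 4 of its tested genes (ins-24, ins-26, ins-27 and ins-30) had fitted values above 0, from 0.23 to 0.86, and 3 of them did not overlap between the groups. All 4 are among the shortest 10% of genes tested, of which 31% were higher without overlap, beside 17.1% of all genes tested. In ins-30 the counts were 32 and 48 with arsenite, against 41 and 26 in controls, which overlap, and its log2 fold change of 0.23 became -0.029 without arsenite replicate 2. The 3 untested genes of the row had 7 and 12 (ins-28), 4 and 6 (ins-29) and 3 and 1 (ins-25) counts with arsenite, and 7 and 8, 5 and 7, and 0 and 0 counts in controls. The second row holds ins-2 to ins-6 and ins-20 on chromosome II from 5988524 to 6011321. Its 5 tested genes had fitted values from -0.34 to 0.61 with no shared direction. Beside ins-19, 600 nt away on the other strand, lies ins-31, which had 8 and 1 counts with arsenite and 1 and 0 counts in controls.

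The counted transcripts of the family are short, and short transcripts as a class stood above the controls in both arsenite libraries, most in replicate 2. The counted lengths of the 36 members with reads run from 204 to 856 nt with a median of 331 nt, and 28 of them are multiples of 3, which is the pattern of coding lengths without UTRs. Of the 19 tested members, 15 (78.9%) belong to the shortest 10% of all genes tested, with lengths up to 540 nt. In 13 of the 19 (68.4%) arsenite replicate 2 was the highest of the 4 libraries, against 24.5% of all genes tested and 46.9% of the shortest 10%. Of the shortest 10% of genes, 31% were higher and 10.1% lower without overlap between the groups, beside the 36.8% and 21.1% of the members given above. Against the control mean, the median log2 ratio of the 19 members was 0.012 in replicate 1 of the arsenite group and 0.23 in its replicate 2. Over all 383 genes with transcripts above 300 and up to 400 nt these medians were 0.099 and 0.20, and over all 172 genes up to 300 nt they were 0.13 and 0.39. In control replicates 1 and 2 the medians were -0.016 and 0.016 above 300 and up to 400 nt, and 0.058 and -0.061 up to 300 nt. For longer transcripts the arsenite medians were smaller. They were 0.0505 and 0.113 above 400 and up to 500 nt (4 members), and 0.016 and 0.0447 above 500 and up to 700 nt (3 members).

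The family median moved when single libraries were left out. It was 0.16 with all libraries, 0.0090 without arsenite replicate 2 and 0.31 without arsenite replicate 1. Leaving out a control gave 0.22 (replicate 1 left out) and 0.24 (replicate 2 left out). After a correction of each library for transcript length it was 0.078, where the median of all genes was 0.024. With this correction ins-19 had a log2 fold change of 0.44, ins-35 of 1.12 and daf-28 of -0.72, with adjusted p of 0.753, 0.703 and 0.655 from the quasi-likelihood test. The part of transcript length in the values of single members was not tested.

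**Figure D4:**
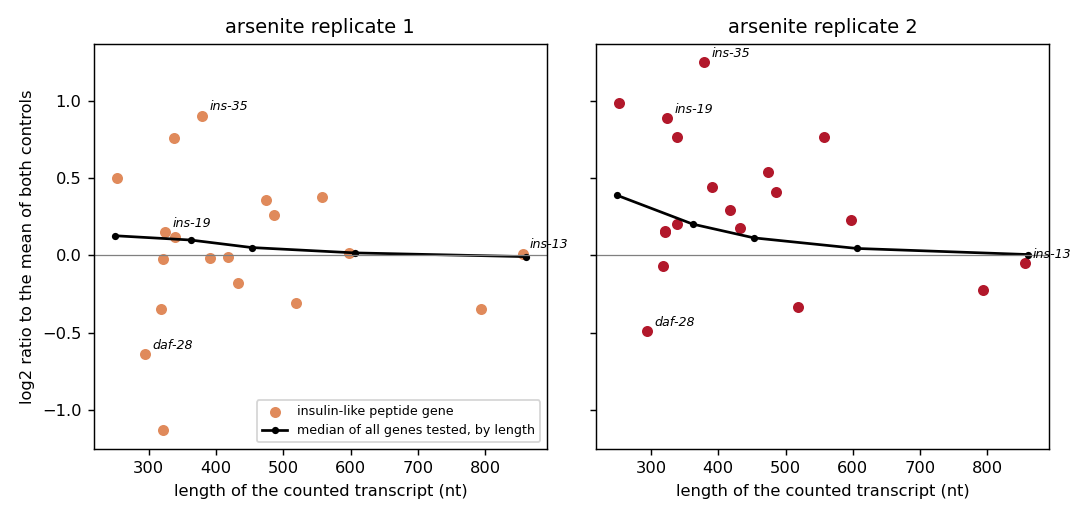
Log2 ratio to the control mean against the length of the counted transcript (nt) for the 19 tested insulin-like peptide genes, in arsenite replicate 1 (left) and arsenite replicate 2 (right), with the median of all genes tested by length class as a black line. The line reaches 0.13 in replicate 1 and 0.39 in replicate 2 for transcripts up to 300 nt, and the members scatter widely around it.

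The 17 members with reads below the filter were counted too sparsely for a test. Their highest count in any library was 12, their summed counts ran from 1 to 34 over the 4 libraries, and 8 of them had 5 counts or fewer in every library. Without a test, 5 of these 17 had both arsenite values above both controls and 2 below, beside 13.8% and 13.2% of all 4848 genes with reads that did not pass the filter. One of these 2 is ins-36, with 3 and 3 counts with arsenite and 10 and 5 in controls, and its exons share 57 nt with Y53H1A.7 on the opposite strand. The other is ins-39, with 0 and 0 counts with arsenite and 1 and 2 in controls. Above the controls was ins-14, with 4 and 5 counts with arsenite and 2 and 2 in controls. Single libraries stood out in ins-10, which had 2 and 2 counts with arsenite and 7 and 1 in controls, in ins-9, with 5 and 0 with arsenite and 1 and 9 in controls, and in ins-12, with 5 and 12 with arsenite and 5 and 6 in controls. Reads were fewer still in ins-23 (2 and 4 with arsenite, 2 and 1 in controls), ins-32 (3 and 3 with arsenite, 2 and 2 in controls), ins-15 (0 and 1 in either group) and ins-11 (0 and 2 with arsenite, 0 and 0 in controls). The gene ins-37 had 1 and 8 counts with arsenite and 3 and 5 in controls, and 192 nt of its exons are shared with annotated non-coding RNA genes. The gene ins-38, which RefSeq lists as a pseudogene, had 1 read, in arsenite replicate 1.

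None of the tested genes of the receptor pathway below the peptides passed the test. Of 24 listed genes of insulin signalling and of DAF-16 regulation, 22 were in the table under these names and 19 were tested. The 3 that were not, eak-3, eak-4 and sdf-9, had 7 counts or fewer in every library. Of the 19 tested genes, 0 were higher and 0 lower by the quasi-likelihood test, and 0 had an unadjusted p under 0.05. DESeq2 and the other edgeR tests (exact, likelihood ratio) called 0 of these 19. Their fitted values had a median of -0.0035, with 2 genes (10.5%) higher and 3 (15.8%) lower without overlap, beside 17.1% and 19.1% of all genes tested. The fitted value farthest from 0 was that of eak-6, -0.36 (SE 0.52), at 10 and 12 counts with arsenite and 22 and 6 counts in controls, which overlap. The receptor gene daf-2 had normalized counts of 12453 and 12811 with arsenite and 11841 and 12191 in controls, a log2 fold change of 0.07 (SE 0.058, quasi-likelihood adjusted p = 0.898). The transcription factor gene daf-16 had a log2 fold change of -0.04 (SE 0.062, quasi-likelihood adjusted p = 0.951). The smallest p belonged to akt-2, a kinase between the receptor and DAF-16, with -0.14 (SE 0.084, adjusted p = 0.811), followed by daf-18, the phosphatase that opposes AGE-1, with 0.088 (SE 0.060, adjusted p = 0.856), and sgk-1, a related kinase, with -0.11 (SE 0.078, adjusted p = 0.858), all by quasi-likelihood.

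Genes that process and release peptide hormones, like markers of neurons and of body wall muscle, had fitted values mostly below 0, and none passed the test. Of 18 listed processing and secretion genes, 14 were in the table and all 14 were tested, with 0 calls by the quasi-likelihood test in either direction and 3 lower at an unadjusted p under 0.05, beside 5.05% of all genes tested. In 10 of the 14 (71.4%) both arsenite libraries lay below both controls, and in 0 above, beside 19.1% and 17.1% of all genes tested. Their median log2 fold change was -0.097. The carboxypeptidase gene egl-21, which trims peptide precursors, had normalized counts of 1978 and 1897 with arsenite and 2238 and 2226 in controls. Its log2 fold change was -0.20 (SE 0.067, quasi-likelihood adjusted p = 0.476). The next by p were aex-3, which acts in vesicle release, at -0.20 (adjusted p = 0.519), and ida-1, a protein of the dense-core vesicle membrane, at -0.24 (adjusted p = 0.549), both by quasi-likelihood. The convertase gene egl-3, which cuts many neuropeptide precursors, had a log2 fold change of -0.12 (SE 0.059, quasi-likelihood adjusted p = 0.752).

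Of the 12 neuronal markers, 8 (66.7%) were lower without overlap and 0 higher, beside 19.1% and 17.1% of all genes tested. Their median log2 fold change was -0.24. Before adjustment, 4 were lower with p under 0.05, beside 5.05% of all genes tested, and the quasi-likelihood test called 0 after it. DESeq2, the exact test and the likelihood ratio test also called 0 genes of either list. Many genes of the processing list are neuronal, and the part of the neuronal markers in their values was not tested. Values below 0 were not limited to neurons. Of the 9 body wall muscle markers, 8 were fitted below 0, and 6 were lower and 0 higher without overlap (median -0.115). The intestinal markers had 8 of 11 below 0 (median -0.064) and the epidermal markers 4 of 8, while all 11 germline markers were above 0 (median 0.0635). The median of the insulin-like peptide genes, 0.16, has the opposite sign to that of the processing genes and the neuronal markers, and the difference between these lists was not tested. The lists also differ in transcript length, with medians of 391 nt for the tested peptides, 2547 nt for the processing genes and 1475 nt for the neuronal markers. Over all tested genes, the median fitted change was 0.25 up to 300 nt (2 members) and 0.16 above 300 and up to 400 nt (8 members). It was 0.081 above 400 and up to 500 nt (4 members) and 0.034 above 500 and up to 700 nt (3 members). Above 700 and up to 1000 nt (2 members) it was 0.0032. The part of transcript length in the difference between the lists was not tested.

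**Figure D5:**
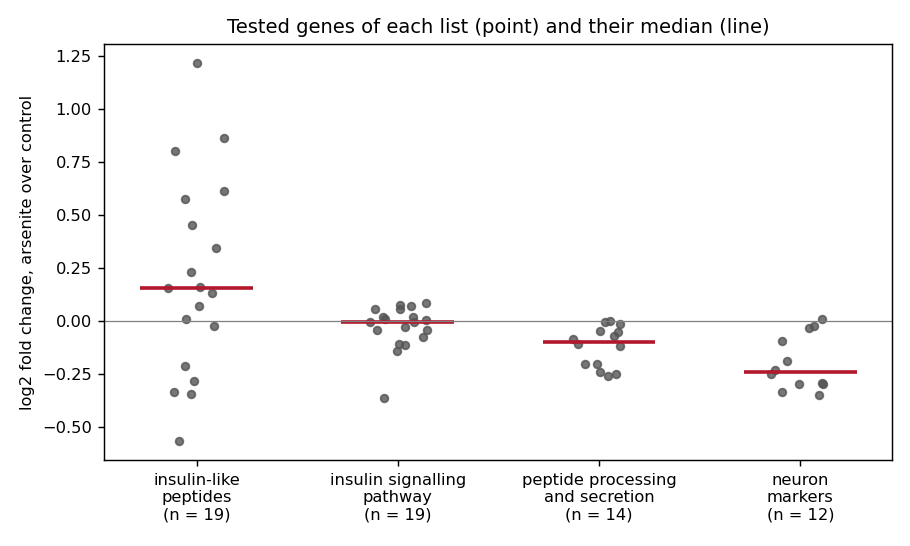
Log2 fold change of arsenite over control for each tested gene (points) and the median (red line) of the insulin-like peptides, the insulin signalling pathway, peptide processing and secretion genes and neuron markers. The medians are 0.16, -0.0035, -0.097 and -0.24, and the peptides spread most widely, from -0.57 to 1.22. Most peptides had fewer reads than most genes of the other lists, and the part of read number in this spread was not tested.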

How the data were processed

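RNA of 4 libraries (2 arsenite, 2 control) was sequenced as single reads of 76 nt after preparation with a kit that keeps no strand. The authors mapped the reads with Bowtie to the genome and an exon junction database, kept unique hits, assigned them with RefSeq and deposited counts, which are not normalized, and RPKM values, scaled by the authors for transcript length and depth. CASAVA and WBcel235 stand in the submitters' processing notes (tool versions: not given in the sources used here). Each deposited gene count is the sum over transcripts, so a read shared by transcripts of a gene can enter more than once. Every member has 1 transcript, and 40 of 40 matched a RefSeq gene of WBcel235. Exon overlaps come from Ensembl release 115.

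The test used was that of edgeR 4.0.16 in R 4.3.3, with filterByExpr (minimum count 10, total 15), TMM, glmQLFit (prior count 0.125) and glmQLFTest over all genes, Benjamini-Hochberg adjustment at 0.05. The study's methods name edgeR without covariates. The biological coefficient of variation was 6.06%. Normalized counts are scaled to the mean library size, and log2 ratios use a pseudocount of 1. The length of a counted transcript follows from count, RPKM and the reads behind RPKM, 30583832 to 35218389 per library. Counting intervals (95%) cover counting error only.

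Alternatives were DESeq2 1.42.0, edgeR's exact and likelihood ratio tests, scaling by RLE or by library size only, other filters, robust dispersion, leaving out each library, a replicate block, a loess correction for length (span 0.5) with and without that block, and, for single genes, transcript counts. The scripts were tested on simulated data. The members and 11 gene lists were chosen with earlier results of these data known. Values per library are given for the 10 members highest in RPKM, the 6 with the smallest p, agonists, antagonists, any member that passed a tool, and ins-19, which the study lists from these samples, so that it is not independent. Of the pathway and processing lists, the 3 genes with the smallest p, daf-2 and daf-16 are named. Other members, egl-3, eak-6 and the 3 untested pathway genes were named after their values were seen. Sequences were not used here.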

Additional observations from a re-analysis of the deposited data

How the results depend on the processing

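The count of insulin-like peptide genes called, 0 in each direction, was 0 under every alternative that used all 4 libraries, DESeq2 and the other edgeR tests included. DESeq2 gave no adjusted p to 15 of the 19 tested members, so it could not call these. With 1 library left out, a group holds a single library, so calls from these refits are not read as results. The log2 fold change of ins-19 was then 0.15 without arsenite replicate 2 and 0.90 without arsenite replicate 1. The counts of pathway and processing genes called, 0 in each direction, changed under no alternative run. Of the 40 members, 36 could be fitted with no filter on low counts and 6 with at least 1 CPM in at least 2 libraries, beside 19 with the default. Their median log2 fold change of 0.16 was 0.12 with library size only, 0.097 in the 6 better counted genes, 0.078 with length correction, and 0.0090 to 0.31 with 1 library left out. Of the single-gene values under alternatives, 255 kept their sign and did not pass the threshold, and 17 changed sign without passing it. The 1 left is that of ins-19 without arsenite replicate 1, from a lone arsenite library. DESeq2 values without an adjusted p are judged by sign alone in these numbers. Whether libraries with the same replicate number were handled together is not given in the sources. Their deviations correlated at 0.0487 across genes, which cannot settle this with 2 libraries per group. With the replicate number as a block, the quasi-likelihood test called 30 genes higher and 50 lower over all genes and 0 members, with 0.54 for ins-19 (adjusted p = 0.224). DESeq2 called 9 and 17 genes, and the unfiltered fit 35 and 44. For most members, depth limits what could be seen. Among the 19 tested, the 95% intervals reached a median of 0.619 to either side on the log2 scale.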
